A study of Mus musculus with 18 samples.

Results

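The most abundantly counted long noncoding RNAs (lncRNAs) of mouse macrophages are described here. Of 11288 lncRNA genes in a table of 56748 genes, 239 had a mean of 100 or more raw counts over 18 libraries, and the 227 that do not lie on chromosome 4 are the members. Those just inside the threshold were 9930014A18Rik, with a mean count of 100.7, and AI480526, with 100.3. Just outside it were 4931431C16Rik with 99.78 and Etohd2 with 99.5. The members were chosen by mean count over all groups, and for 91 of them the lowest group mean was under 100 counts, so these passed through the groups in which they were higher. The other 136 reached a mean of 100 in every group. All 227 passed the filter on low counts in each comparison.

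The libraries were made from bone marrow-derived macrophages, which grow out of mouse bone marrow in L929 cell supernatant, a source of macrophage colony-stimulating factor. The 6 groups of 3 libraries were TLR4-knockout macrophages given GM, MDP or water and wild-type macrophages given GM, MDP or water, all on the C57BL/6J background. Treatment began on day 7 of differentiation and lasted 24 h in IMDM medium free of serum. TLR4 is the macrophage receptor for bacterial lipopolysaccharide. GM is GlcNAc-MurNAc, the disaccharide unit of bacterial peptidoglycan without its peptide. MDP is the sugar MurNAc with a dipeptide, written MurNAc-D-Ala-L-Gln in the labels, although the ligand known for the cytosolic receptor NOD2 is MurNAc-L-Ala-D-isoGln. Doses are not given, nor is the deleted stretch of Tlr4, so responses to GM and MDP were compared at 1 shared time and at unknown relative doses. Samples of a group are called biological replicates, but separate animals or cultures are not mentioned, so p-values here reflect how far these samples vary, and that variation may be technical.

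Long noncoding RNAs are transcripts without a recognised long coding frame, often spliced and polyadenylated like messenger RNAs. Some work where they are made, such as Xist, which coats and silences an X chromosome, or Morrbid, which represses the neighbouring death gene Bcl2l11 in mouse myeloid cells. Others build nuclear bodies (Neat1 in paraspeckles, Malat1 in nuclear speckles), hold RNA-binding proteins (Norad binds Pumilio proteins) or are hosts whose introns release small nucleolar RNAs. Many lie antisense to a coding gene or start beside its promoter, and in macrophages a number are switched on by microbial signals.

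The members spanned a wide range. Mean counts ran over 100.3 to 9496 (median 198.1), annotated lengths over 241 to 22022 bases (median 2141), and mean FPKM, the authors' level per transcript length, over 0.404 to 158.3 (median 5.519). Most are known only by provisional names, with 118 Gm symbols, 42 Rik symbols and 28 listed by Ensembl identifier alone. Per length, the highest mean was that of ENSMUSG00000121068, antisense to the glutathione peroxidase gene Gpx1, at 158.3 FPKM. Next came Gm29233, antisense to the thrombospondin gene Thbs1, at 123.7 FPKM, Gm40645 at 88.8, AW112010 at 72.9, Gm50251 at 68.6, Gm45552 at 54.0, Gm10076 at 53.2, Gm11175 at 51.0, ENSMUSG00000120144 at 42.8 and Malat1 at 41.7 FPKM. In counts, Xist led, with 380.3 to 642.2 CPM over all libraries (CPM, counts scaled to library size with TMM factors). Together the members took 0.521% to 0.591% of the counts in knockout libraries and 0.348% to 0.587% in wild-type libraries.

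Total counts per library were 15532973 to 21128507. Tlr4, the targeted gene, stood at 36.5 to 52.9 CPM in the 9 knockout libraries and at 117.5 to 229.5 CPM in the 9 wild-type ones, with no overlap. Wild-type water replicate 3 stood apart, with the lowest scaling factor (0.877). Summed macrophage markers (10 of 10 genes detected in every group) lay at 24960 to 33110 CPM in all libraries. Summed markers of fibroblasts and stroma were at 18.3 to 30.8 CPM in knockout libraries, and in wild type at 79.8 to 130.8 with GM, 24.4 to 34.7 with MDP and 82.7, 353 and 390 in water, the 82.7 being replicate 3. Summed neutrophil markers were at 79.6 to 286 CPM in knockout libraries and at 8.32 to 80.1 in wild-type libraries. Summed dendritic cell markers were at 656 to 873 CPM in knockout and 1226 to 1993 in wild type, with no overlap. Summed cell cycle genes were at 625 to 1029 CPM in knockout and 252 to 651 in wild type. In bulk samples, fewer cells of a type and less RNA per cell cannot be told apart. The part of these cells in the lncRNA results was not tested.

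Most members share sequence space with a coding gene. Of the 227, 157 (69.2%) overlap a protein-coding gene on the opposite strand, 13 overlap 1 on the same strand, 12 start head to head with a coding gene within 5000 bases, and 45 have no such overlap. The opposite-strand members had a median level per length of 5.93 FPKM, close to the 5.27 of those without overlap. Their CPM was a small part of that of the gene they overlap, with a median of 8.14% (quartiles 4.75% and 14.9%), and 7 exceeded 100%. The libraries were directional, but whether the authors counted by strand is not stated, so reads of these members and of their overlapped genes cannot be told apart.

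The level of the opposite-strand members shifted as a class from library to library. Their median share of the overlapped gene's CPM was 8.42%, 9.12% and 9.19% in knockout GM libraries, 8.55%, 8.56% and 7.72% in knockout MDP and 9.36%, 9.30% and 7.89% in knockout water. In wild type it was 3.92%, 3.63% and 7.25% with GM, 8.96%, 9.63% and 10.5% with MDP, and 6.32%, 6.21% and 4.70% in water. Wild-type GM and water libraries therefore lay below every knockout library, while the wild-type MDP libraries lay within or above the knockout range. Set against its own mean over the 18 libraries, the class had a median log2 level of -0.88 to 0.52. The overlapped coding genes stayed within -0.04 to 0.10 and the members with no overlap within -0.23 to 0.16. Because this shift is shared by the class, every count below is given a second time with the opposite-strand members scaled by that share in each library, a step chosen after seeing the data. The share is taken from these same members. Scaling by it therefore takes out any change common to the class relative to the overlapped genes, whatever its source. The source of the shift was not tested.

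**Figure D1:**
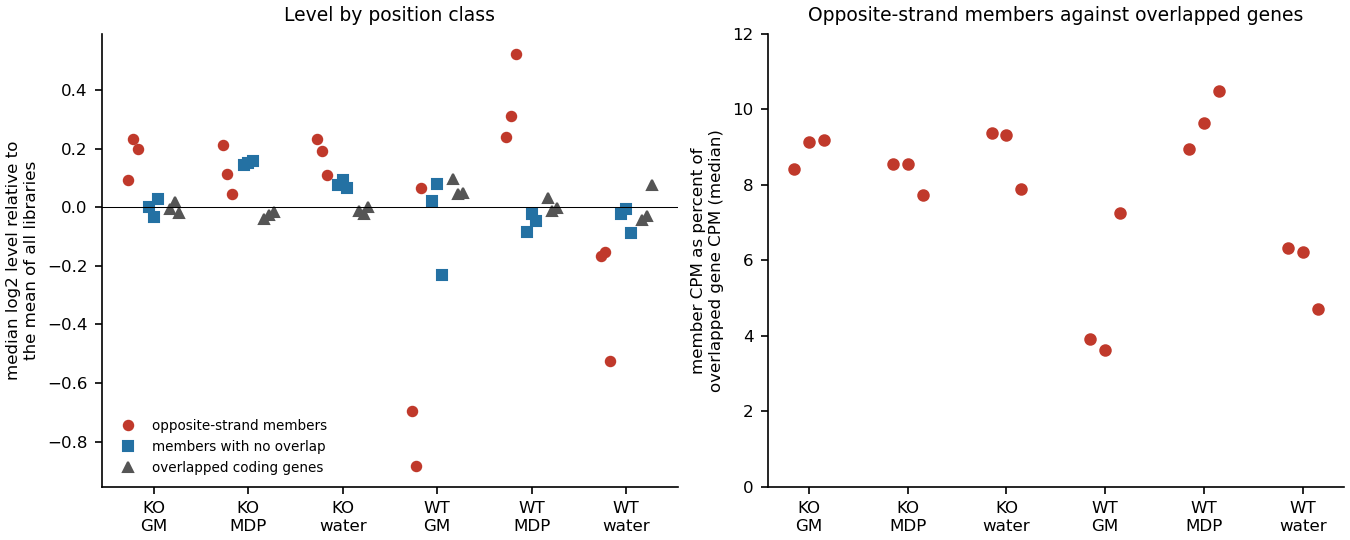
Left, median log2 level against the 18-library mean (y axis) of the 157 opposite-strand members (red circles), the 45 members with no overlap (blue squares) and the overlapped coding genes (grey triangles), 1 point per library, by group (x axis; KO, TLR4 knockout; WT, wild type). Right, the median CPM of opposite-strand members as a percent of the CPM of the overlapped gene; the wild-type GM and water libraries sit between 3.63% and 7.25% and the knockout libraries between 7.72% and 9.36%.

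The first comparison asked which lncRNAs answer to GM in wild-type macrophages. AW112010, a lipopolysaccharide-inducible mouse transcript reported to encode a protein through a noncanonical reading frame, was the 1 member that passed, and it rose. It lies on chromosome 19, 11021557 to 11033245 (GRCm39, minus strand), with no coding gene overlapping it. In wild type it stood at 194, 221 and 217 CPM with GM, against 40, 36.6 and 26.5 CPM in water. All 3 GM libraries lay above all water libraries. The log2 fold change was 2.61 (SE 0.18, edgeR quasi-likelihood test with Benjamini-Hochberg adjustment over all genes, adjusted p = 0.00584).

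Among all 14297 genes tested, 0.650% passed, all of them higher (0.650% higher, 0.00% lower), and 0.738% of coding genes with a mean count of 100 or more did. The 1 of 227 members (0.441%) is near that background. 13 members had an unadjusted p under 0.05, and the share of all genes at that cut is not given here. In 18 of the 227 the CPM ranges of the GM and water groups did not overlap, and the same lack of overlap was seen in 12.1% of all genes. DESeq2 called 5 members, and with the opposite-strand members scaled 2 passed, both higher. The median log2 fold change of the members was -0.13, against -0.04 over all genes tested. It was -0.20 for the opposite-strand members and 0.03 for those with no overlap. Wild-type GM libraries varied widely among themselves, and AW112010 missed the threshold without water replicate 2 (adjusted p = 0.0557) or without GM replicate 1 (adjusted p = 0.0515). In all, 3 members passed without water replicate 3. Without water replicate 2 or GM replicate 1, edgeR called 0, with 8 and 11 members at an unadjusted p under 0.05.

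In 13 members all GM libraries lay above all water libraries, and 1 of these, AW112010, passed. Gm13546, 6530402F18Rik and Gm14023 are described among the rest, chosen after their values were seen. Gm13546, antisense to Cytip, whose product regulates leukocyte adhesion, stood at 18.05, 25.9 and 16.3 CPM with GM in wild type, against 7.87, 6.39 and 6.58 CPM in water (log2 fold change 1.53, SE 0.22, adjusted p = 0.0519). 6530402F18Rik, inside Ntng2 on the same strand, stood at 34.6, 31.0 and 36.8 CPM with GM, against 16.7, 15.5 and 11.1 CPM in water (log2 fold change 1.24, SE 0.19, adjusted p = 0.0561). Ntng2, a netrin-family guidance gene, rose (log2 fold change 1.22, SE 0.16, adjusted p = 0.0361) and Cytip did not pass (1.15, adjusted p = 0.219).

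Gm14023 lies antisense to Il1a, which encodes interleukin-1 alpha (chromosome 2, 129139285 to 129149746). It stood at 12.2, 5.42 and 40.5 CPM with GM in wild type, against 0.908, 1.16 and 1.16 CPM in water. The GM libraries all lay above the water ones but differed widely from each other, and Gm14023 did not pass (log2 fold change 4.17, SE 0.80, adjusted p = 0.131). Il1a itself stood at 621, 342 and 778 CPM with GM, against 23.5, 26.4 and 76.3 CPM in water, and did not pass in this fit either (log2 fold change 3.79, SE 0.58, adjusted p = 0.0642). The library with the most Il1a, GM replicate 3, also had the most Gm14023.

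**Figure D2:**
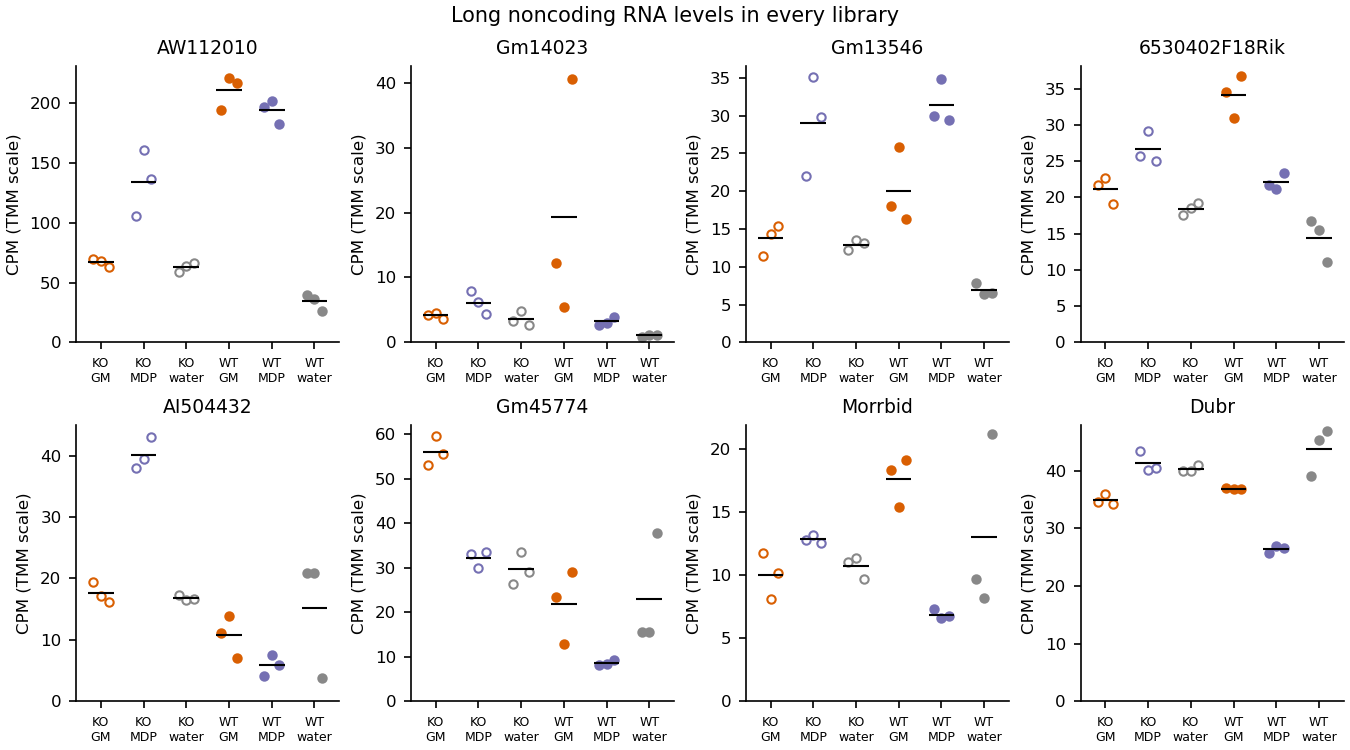
CPM on the TMM scale (y axis) of 8 lncRNAs in each library, by group (x axis); open circles are TLR4-knockout and filled circles wild-type libraries, orange for GM, purple for MDP and grey for water, and bars are means of 3. AW112010 sits at 194 to 221 CPM in wild-type GM libraries against 26.5 to 40 in wild-type water, and at 62.9 to 69.6 in knockout GM against 58.7 to 66.1 in knockout water.

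In knockout macrophages the same comparison asked what GM does without intact TLR4. AW112010 stood at 69.6, 68.3 and 62.9 CPM with GM, against 58.7, 64.1 and 66.1 CPM in water, so the groups overlapped. Its log2 fold change was 0.09 with a 95% interval of -0.02 to 0.21 (adjusted p = 0.383). 20 of 227 members passed (8.81%), 7 higher and 13 lower, close to the 8.61% of all 14139 genes tested (4.15% higher, 4.46% lower) and under the 11.5% of coding genes with a mean count of 100 or more. Scaled, 6 rose and 13 fell. Of 12 cell cycle genes 9 fell in the same libraries. The changes of the 20 passing members were all under 2-fold. Over the 227 members the median log2 fold change was -0.01, against 0.00 over all genes.

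The 2 largest rises with GM in knockout cells were in the antisense members Gm45774 and Gm29233. Gm45774, antisense to the metallothionein gene Mt2, stood at 53.0, 59.5 and 55.5 CPM with GM, against 26.4, 33.6 and 29.1 CPM in water (log2 fold change 0.92, SE 0.07, adjusted p = 3.75e-10). Mt2, whose product binds metal ions, rose as well (log2 fold change 0.93, SE 0.05, adjusted p = 9.87e-16). Gm29233 rose to 35.1 ± 3.10 CPM with GM, against 21.0 ± 0.887 CPM in water (SD, n = 3 each; log2 fold change 0.75, adjusted p = 3.01e-08), and Thbs1, which it overlaps, rose by log2 0.70. Gm20412 and Gm40578, on the same strand as a coding gene, rose by log2 0.36 and 0.33. Gm15441, antisense to Txnip and reported to restrain it in mouse liver, rose by log2 0.30 (SE 0.08, adjusted p = 0.0215). It did not pass with DESeq2, nor without water replicate 2 or 3 or GM replicate 2 or 3 (adjusted p = 0.0584 to 0.175).

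Members that fell with GM in knockout cells mostly lacked an overlap on the opposite strand. Of the 13 that fell, 8 have no overlap, 3 are head to head with a coding gene and 2 are opposite-strand members. AI506816, near Srpk2, stood at 46.8 ± 4.70 CPM with GM, against 66.5 ± 2.57 CPM in water (log2 fold change -0.50, SE 0.06, adjusted p = 6.28e-07). AI480526, head to head with the histone methyltransferase gene Setd1b, had the largest fall (log2 fold change -0.74, SE 0.18, adjusted p = 0.00666). AU022793 fell by 0.42 and ENSMUSG00000120992, head to head with the valyl-tRNA synthetase gene Vars, by 0.36 on the log2 scale. A single fit of all 18 libraries called 0 members, with 9 at an unadjusted p under 0.05, and DESeq2 on the compared libraries called 16. The labels give no batch, so a batch and the treatment cannot be told apart.

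Whether the GM response differed between the genotypes was tested as an interaction, the wild-type response minus the knockout response. 3 of 227 members differed (1.32%), all with the higher log2 response in wild type. This share is near the 0.953% of all 15117 genes tested (0.939% higher in wild type, 0.0132% lower) and the 1.23% of well-counted coding genes. For AW112010 the difference was log2 2.53 (SE 0.19, adjusted p = 8.29e-05), and it passed in 18 of 18 settings tried. For Gm13546 it was log2 1.44 (SE 0.26, adjusted p = 0.0255), with a knockout response of log2 0.09 (95% interval -0.14 to 0.33). For 6530402F18Rik it was log2 1.05 (SE 0.20, adjusted p = 0.0396), with a knockout response of log2 0.20 (95% interval 0.01 to 0.39). With the opposite-strand members scaled, the log2 response was higher in wild type in 4 members and lower in 1, and Gm13546 no longer passed (log2 1.86, adjusted p = 0.121). Without wild-type water replicate 3, 15 members passed; without wild-type GM replicate 3, 6 did; without wild-type GM replicate 1, 2 did. The count was 1, AW112010, without wild-type water replicate 2 or without any of the 6 knockout libraries; Gm13546 then had adjusted p-values of 0.0599 to 0.0908. 6530402F18Rik also missed the threshold without wild-type GM replicate 1 or 3, with 0.0637 to 0.134 over these 9 refits.

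The promoters of these 3 members and of Gm14023 are shown because the GM response of the first 3 differed between the genotypes and Gm14023 lies antisense to Il1a. RefSeq (build GRCm38.p6) holds 250 bases before and 50 after the start of 92 of the 227 members. Capitals mark a match, on either strand, to the consensus of NF-kB, the transcription factor that TLR4 signalling activates. The windows are chr19:11050517-11050816 on the minus strand for AW112010, chr2:29252944-29253243 on the minus strand for 6530402F18Rik, chr2:129297120-129297419 on the plus strand for Gm14023 and chr2:58163724-58164023 on the plus strand for Gm13546.
AW112010 promoter: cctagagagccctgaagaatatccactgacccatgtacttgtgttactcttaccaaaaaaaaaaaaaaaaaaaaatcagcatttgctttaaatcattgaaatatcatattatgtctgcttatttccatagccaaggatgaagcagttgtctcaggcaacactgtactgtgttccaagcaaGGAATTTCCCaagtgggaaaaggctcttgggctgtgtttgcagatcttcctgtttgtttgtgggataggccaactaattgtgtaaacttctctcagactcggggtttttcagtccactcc
6530402F18Rik promoter: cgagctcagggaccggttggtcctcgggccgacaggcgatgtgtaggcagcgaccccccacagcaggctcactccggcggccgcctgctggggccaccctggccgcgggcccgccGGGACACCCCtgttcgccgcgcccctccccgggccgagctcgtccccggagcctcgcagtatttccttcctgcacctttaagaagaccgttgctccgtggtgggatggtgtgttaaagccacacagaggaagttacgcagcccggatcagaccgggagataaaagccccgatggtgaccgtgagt
Gm14023 promoter: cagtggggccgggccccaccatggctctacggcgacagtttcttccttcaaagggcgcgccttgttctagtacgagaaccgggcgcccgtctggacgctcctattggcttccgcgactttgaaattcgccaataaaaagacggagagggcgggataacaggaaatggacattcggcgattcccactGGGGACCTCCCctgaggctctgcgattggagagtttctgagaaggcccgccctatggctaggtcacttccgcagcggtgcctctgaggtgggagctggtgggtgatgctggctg
Gm13546 promoter: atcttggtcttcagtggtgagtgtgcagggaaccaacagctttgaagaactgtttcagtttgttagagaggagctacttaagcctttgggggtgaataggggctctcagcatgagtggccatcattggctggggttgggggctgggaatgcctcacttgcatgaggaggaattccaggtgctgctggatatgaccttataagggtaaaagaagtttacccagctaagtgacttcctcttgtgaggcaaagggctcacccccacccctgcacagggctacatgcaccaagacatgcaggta
AW112010 carries its match at position -70 from the RefSeq start, 6530402F18Rik at -135 and Gm14023 in 2 overlapping registers, while these letters do not occur in the Gm13546 window. Matches to the NF-kB consensus were found in 8.18% of 27025 promoters of this length and in 12 of the 92 members' promoters (13.0%). The core of the interferon response element (GAAA, any 2 bases, GAAA) was in 3.49% of all and 4.35% of the members' promoters, and the AP-1 site TGANTCA in 7.93% and 5.43%. A match describes letters in a window and is no evidence of binding.

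In wild-type macrophages more lncRNAs passed with MDP than with GM. The replicates differed in spread, with a common biological coefficient of variation of 27.6% with GM, 8.11% with MDP and 35.5% in water. The numbers that passed therefore do not compare the breadth of the 2 effects. With MDP, 48 of 227 members passed (21.1%), 43 higher and 5 lower. Of all 14263 genes 9.14% passed (5.13% higher, 4.02% lower), and 9.34% of coding genes with a mean count of 100 or more. Of the 43 that rose, 38 are opposite-strand members. Their class median log2 fold change was 0.64, against -0.04 for the members with no overlap, of which 1 rose and 4 fell. With the opposite-strand members scaled by their share of the overlapped genes, 14 members rose and 18 fell. That scaling takes out a change shared by the class by construction, so it does not test the excess of rises. The median over all members was 0.48 and over all genes -0.04. In 128 of the 227 members the MDP and water CPM ranges did not overlap, and the same lack of overlap was seen in 38.5% of all genes. Stromal markers moved in the same libraries, 10 of the 13 tested falling with MDP. Of 5 dendritic cell markers tested, 2 rose and 2 fell, and 2 of 5 neutrophil markers rose. Summed osteoclast markers were at 314.6 to 354.9 CPM with MDP and 139.2 to 199.3 CPM in water, and 1 of the 4 tested rose, Acp5.

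AW112010 stood at 197, 202 and 182 CPM with MDP in wild type, against 40, 36.6 and 26.5 CPM in water, again without overlap. It was the 1 member with no overlap that rose (log2 fold change 2.50, SE 0.17, adjusted p = 0.00173). Gm13546 stood at 30.0, 34.9 and 29.4 CPM with MDP, against 7.87, 6.39 and 6.58 CPM in water (log2 fold change 2.18, SE 0.14, adjusted p = 0.00173), and Cytip rose by log2 1.44 (SE 0.20, adjusted p = 0.00982). Both passed in 12 of 12 settings, and with the scaling the log2 fold change of Gm13546 was 1.42.

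The largest rise with MDP in wild type was in 6530413G14Rik, antisense to Acp5, the tartrate-resistant acid phosphatase of osteoclasts and macrophages. It stood at 31.2, 28.4 and 38.5 CPM with MDP, against 3.58, 6.09 and 3.32 CPM in water (log2 fold change 2.92, SE 0.27, adjusted p = 0.00317). Acp5 rose by log2 2.02 (SE 0.12, adjusted p = 0.00173). Next by size were A930037H05Rik and Slfn5os. A930037H05Rik, antisense to the ubiquitin ligase gene Rnf213, rose by log2 2.79 (37.0 ± 5.53 CPM with MDP, 5.38 ± 3.35 in water, SD, n = 3 each, adjusted p = 0.0164). Slfn5os, antisense to the Schlafen gene Slfn5, rose by log2 2.50 (19.7 ± 3.87 CPM with MDP, 3.49 ± 1.75 in water, adjusted p = 0.0165). Rnf213 and Slfn5 rose as well, by log2 2.07 and 1.61.

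Gm19412, antisense to the peptide-loading gene Tapbp, rose by log2 1.92 (adjusted p = 0.00219) and Gm48342, antisense to the cholesterol synthesis gene Hmgcs1, by log2 1.65 (adjusted p = 0.0372). Tapbp rose by log2 0.77, and Hmgcs1 did not pass (log2 0.70, adjusted p = 0.0949). Gm17233, on the same strand as the retinoblastoma gene Rb1, rose by log2 1.61 (SE 0.19, adjusted p = 0.0066), beside Rb1 at log2 0.10 (not passed). ENSMUSG00000121068, the most abundant member per length, stood at 237, 240 and 286 FPKM with MDP, against 126, 122 and 91.9 FPKM in water. Its log2 fold change on the count scale was 1.17 (SE 0.15, adjusted p = 0.00822).

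Plet1os fell with MDP in wild type together with Plet1, the gene it overlaps. It stood at 1.97, 2.50 and 1.68 CPM with MDP, against 25.2, 20.2 and 7.25 CPM in water, the lowest water value being replicate 3 (log2 fold change -3.08, SE 0.49, adjusted p = 0.0148). Plet1 fell by 3.64 on the log2 scale (SE 0.53, adjusted p = 0.0113). The other 4 that fell have no overlap, among them Dubr, reported to promote muscle differentiation in mouse. Dubr stood at 25.8, 26.9 and 26.6 CPM with MDP, against 39.1, 45.2 and 46.9 CPM in water (log2 fold change -0.72, SE 0.11, adjusted p = 0.0119). Gm6209, AI506816 and AU022793 fell by 0.56 to 0.66 on the log2 scale. Without water replicate 2 or any 1 of the MDP replicates, adjusted p-values were 0.0514 to 0.0953 for Plet1os and 0.0508 to 0.0817 for Dubr.

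The number of members that passed for MDP in wild type moved with each library left out. The share of all genes that passed in these refits is not given, so the moves cannot be read as particular to the members. Without water replicate 3 the count was 125, with 106 higher and 19 lower, without water replicates 1 and 2 it was 22 and 18, and without MDP replicates 1, 2 and 3 it was 7, 6 and 5. DESeq2 called 85. Of the members named for this comparison, AW112010, Gm13546, 6530413G14Rik and Gm19412 passed in all 6 refits without 1 library. A930037H05Rik, Slfn5os, Gm48342, Gm17233 and the 5 that fell each missed the threshold without MDP replicate 2 or 3, with adjusted p-values of up to 0.164 (Gm6209), and Gm48342 missed it with the scaling too.

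In knockout macrophages MDP changed 61 of 227 members (26.9%), 26 higher and 35 lower. Of all 14158 genes 20.9% passed (10.4% higher, 10.5% lower). The members' share is near the 25.7% of well-counted coding genes, which meet the same count threshold but were not matched to the members in depth. Scaled, 37 rose and 23 fell. The members' median log2 fold change was -0.02, and 4 of the 61 changed at least 2-fold. Cell cycle genes fell in 12 of 12 cases in the same libraries. Of the members with no overlap, 9 rose and 8 fell.

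AI504432, next to the potassium channel gene Kcna3 (chromosome 3, 106946820 to 106961663), stood at 38.0, 39.4 and 43.0 CPM with MDP in knockout, against 17.3, 16.4 and 16.7 CPM in water. The groups did not overlap (log2 fold change 1.26, SE 0.08, adjusted p = 2.07e-14). Gm29233 stood at 61.2, 65.8 and 52.4 CPM with MDP, against 22, 20.6 and 20.4 CPM in water (log2 fold change 1.52, SE 0.08, adjusted p = 1.04e-16), and Thbs1 rose by log2 1.45 (SE 0.11, adjusted p = 0.000316). AW112010 stood at 105.8, 160 and 136.5 CPM with MDP, against 58.7, 64.1 and 66.1 CPM in water (log2 fold change 1.10, SE 0.18, adjusted p = 0.018). All MDP libraries lay above the water libraries in these 3 members. AW112010 missed the threshold without any 1 of the water replicates or without MDP replicate 3 (adjusted p = 0.0646 to 0.0797).

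Of the 26 members that rose in knockout, 15 are antisense, 2 overlap a gene on the same strand and 9 have no overlap. Gm45507, antisense to the mitophagy receptor gene Bnip3, rose by log2 0.96 (SE 0.14, adjusted p = 3.7e-06) and Gm15283, antisense to Hif1a, the oxygen-regulated transcription factor gene, by log2 0.87 (SE 0.12, adjusted p = 1.33e-06). Gm20412, on the same strand as Rprd1b, rose by log2 0.90 (SE 0.10, adjusted p = 2.18e-08). Bnip3 and Hif1a rose by log2 0.92 and 0.82. Gm13546 rose by log2 1.17 (SE 0.14, adjusted p = 2.66e-05), beside Cytip at log2 0.98. Among those that fell, Gm44732, antisense to the cell cycle inhibitor gene Cdkn1c, had the largest log2 fold change, -0.84 (SE 0.29, adjusted p = 0.0335), at 1.54 ± 0.602 CPM with MDP and 2.77 ± 0.390 CPM in water. It missed the threshold with DESeq2, with the scaling, and without water replicate 2 or 3 or MDP replicate 2 or 3 (adjusted p = 0.0706 to 0.158). Gm37885, antisense to the calpain gene Capn2, fell by 0.77 and ENSMUSG00000120992 by 0.62 on the log2 scale.

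Knockout libraries of a group agreed closely, with a common biological coefficient of variation of 5.69% to 6.49%, against 8.11% to 35.5% in wild-type groups. The single fit of all 18 libraries called 4 of the members for MDP in knockout, where the fit of the compared libraries called 61.

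The MDP response differed between the genotypes in 48 of 227 members (21.1%). Of all 15013 genes 8.24% differed (log2 response higher in wild type in 4.79%, lower in 3.45%), and of well-counted coding genes 9.53%. Taken with its sign, the log2 response was higher in wild type in 43 members and lower in 5. A lower value can be a fall in wild type, a rise in knockout or both. With the opposite-strand members scaled the split was 12 and 13. In the same test the log2 response was lower in wild type in 4 of 13 stromal markers and higher in wild type in 6 of 12 cell cycle genes. 39 of the 43 are opposite-strand members, led by A930037H05Rik (log2 difference 2.37, SE 0.47, adjusted p = 0.0122), Slfn5os (2.17, adjusted p = 0.0108) and 6530413G14Rik (2.14, adjusted p = 0.00361). In knockout, the log2 response to MDP was 0.43 for A930037H05Rik, 0.33 for Slfn5os (not passed, adjusted p = 0.0626) and 0.78 for 6530413G14Rik. In water, A930037H05Rik and Slfn5os were higher in knockout than in wild type, by log2 1.78 and 1.60. Their smaller knockout responses thus started from a higher level. These calls in water were lost in 4 and 5 refits without 1 library. AW112010 responded more in wild type by log2 1.40 (SE 0.23, adjusted p = 0.00371).

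4 of the 5 members with the lower log2 response in wild type have no overlap. AI504432 differed by log2 -2.64 (SE 0.65, adjusted p = 0.031). Besides its rise in knockout, it stood at 4.10, 7.45 and 5.95 CPM with MDP in wild type, against 20.9, 20.9 and 3.82 CPM in water. Water replicate 3 lay below all 3 MDP libraries and the wild-type change did not pass (log2 fold change -1.38, 95% interval -2.86 to 0.10). Dubr differed by log2 -0.76 (SE 0.11, adjusted p = 0.00224) and had a knockout response of log2 0.04 (95% interval -0.10 to 0.18). Gm45774, the antisense member of the 5, differed by log2 -1.54 (adjusted p = 0.043), 2210408F21Rik by -1.09 (adjusted p = 0.0492) and F630028O10Rik by -0.51 (adjusted p = 0.0417). Leaving out any 1 library other than wild-type water replicate 3 ended the call of AI504432 (adjusted p = 0.0549 to 0.0786) and of F630028O10Rik (0.0522 to 0.103). Leaving out any 1 library other than wild-type water ended that of Gm45774 (0.0741 to 0.106) and of 2210408F21Rik (0.059 to 0.122).

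Without wild-type water replicate 3, 112 members differed. Without wild-type MDP replicate 3, knockout MDP replicate 3 or knockout water replicate 2, 26 did, and without knockout water replicate 1 or 3, 29 did.

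**Figure D3:**
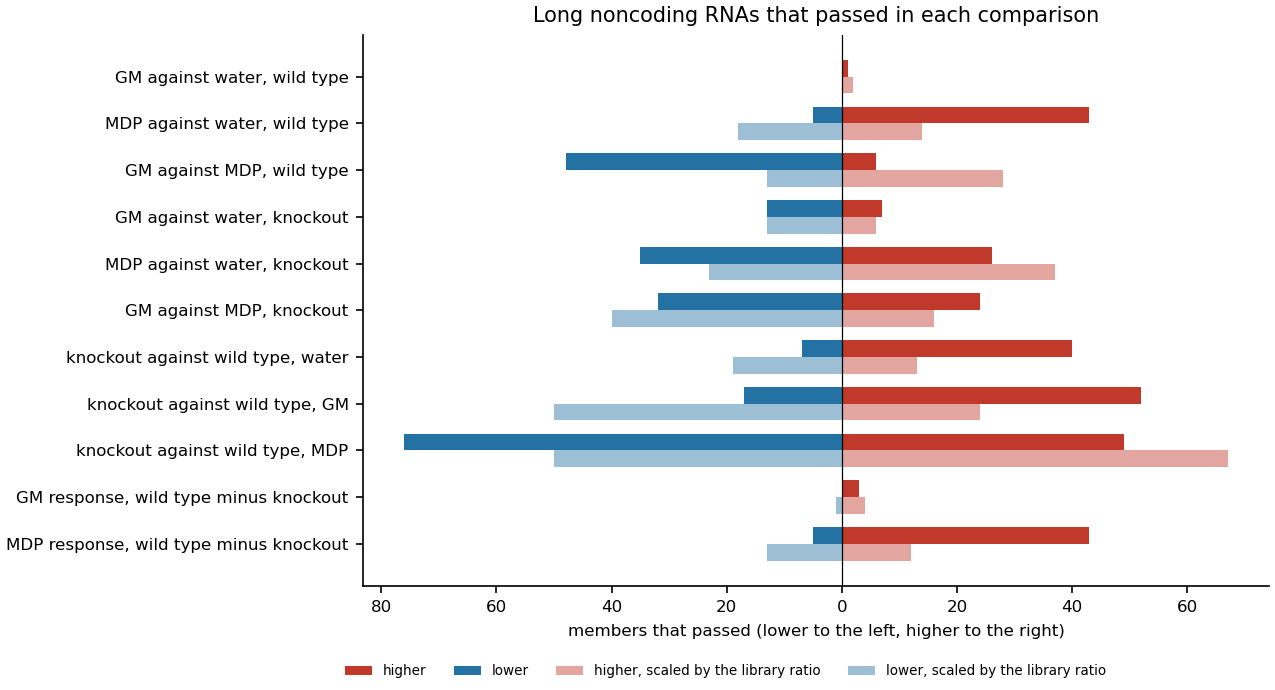
Number of the 227 lncRNAs that passed in each comparison (adjusted p under 0.05, edgeR), higher to the right in red and lower to the left in blue; paler bars give the numbers with the opposite-strand members scaled by their share of the overlapped genes in each library. For MDP against water in wild type 43 rose and 5 fell, and with the scaling 14 rose and 18 fell.

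GM and MDP were also set against each other at 24 h, at unknown doses. The molecules differ by the GlcNAc sugar, which GM has, and the dipeptide, which MDP has. In wild type, 54 of 227 members differed (23.8%), 6 higher with GM and 48 lower, where 10.7% of all 14216 genes did (5.54% higher, 5.17% lower) and 10.5% of well-counted coding genes, those with a mean of 100 or more. 47 of the 48 are opposite-strand members, and with these scaled 28 were higher and 13 lower. The members' median log2 fold change was -0.62, against 0.00 over all genes. Stromal markers were higher with GM in 7 of 13 genes and cell cycle genes lower in 5 of 12. Without GM replicates 1, 2 and 3 the count was 11, 87 and 124, and without MDP replicates 1, 2 and 3 it was 7, 5 and 6.

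Morrbid stood at 18.3, 15.4 and 19.1 CPM with GM in wild type, against 7.28, 6.56 and 6.79 CPM with MDP (chromosome 2, 128020239 to 128344685; log2 fold change 1.34, SE 0.14, adjusted p = 0.00342). The groups did not overlap, and the difference passed in 12 of 12 settings. In water it stood at 9.69, 8.16 and 21.2 CPM, a range that holds all 3 GM values. AW112010 did not differ beyond its spread (log2 fold change 0.10, 95% interval -0.11 to 0.32, adjusted p = 0.473), at 211 ± 14.7 CPM with GM and 194 ± 10.3 CPM with MDP. Lower with GM were Gm48342 (log2 fold change -2.50, SE 0.28, adjusted p = 0.00437), 6530413G14Rik (-2.18, adjusted p = 0.0174) and Gm41396, antisense to the tubulin gene Tuba1b (-2.13, adjusted p = 0.00509). Plet1os, Gm45774, Gm14636, 6530402F18Rik and Dubr were higher with GM, by log2 0.46 to 1.91. These 5 and 6530413G14Rik missed the threshold without GM replicate 1 or any 1 of the MDP replicates (adjusted p = 0.0638 to 0.133).

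In knockout, 56 of 227 members differed (24.7%), 24 higher with GM and 32 lower, where 17.7% of all 14195 genes (8.38% higher, 9.33% lower) and 21.9% of well-counted coding genes did. With the opposite-strand members scaled, 16 were higher and 40 lower. Cell cycle genes were higher with GM in 8 of 12 cases. AI504432 stood at 19.4, 17.1 and 16.2 CPM with GM, against 38.0, 39.4 and 43.0 CPM with MDP (log2 fold change -1.20, SE 0.08, adjusted p = 6.64e-14). AW112010 was lower with GM by 1.01 on the log2 scale (SE 0.18, adjusted p = 0.0273), as was Gm13546 by 1.08 (adjusted p = 0.00927; 0.0595 and 0.071 without MDP replicate 3 or GM replicate 2). Gm45774 was higher with GM by log2 0.80 (SE 0.07, adjusted p = 1.44e-11) and Plet1os by log2 1.44 (SE 0.29, adjusted p = 0.000276). AW112010 missed the threshold without any 1 of the GM replicates or without MDP replicate 3 (adjusted p = 0.088 to 0.106). Without knockout GM replicate 2 the count was 37, and the fit of all 18 libraries called 2 members.

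Knockout and wild-type macrophages also differed in lncRNAs without GM or MDP, after 24 h with water. In water, 47 of 227 members passed (20.7%), 40 higher in knockout and 7 lower, where 15.8% of all 14294 genes (6.98% higher, 8.80% lower) and 16.8% of well-counted coding genes passed. Under the scaling 13 were higher and 19 lower. The members' median log2 fold change was 0.37, against -0.02 over all genes. In knockout water, stromal markers were lower in 12 of the 13 genes tested and dendritic cell markers in 2 of 5, while neutrophil markers were higher in 2 of 6 and cell cycle genes in 7 of 12.

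Gm45472, antisense to the gelatinase gene Mmp2, stood at 18.7, 22.2 and 17.1 CPM in knockout water, against 4.19, 4.99 and 2.16 CPM in wild-type water (log2 fold change 2.36, SE 0.31, adjusted p = 0.00749). Mmp2 was higher by log2 2.59 (SE 0.12, adjusted p = 0.000497). Gm2245, antisense to Fyb, an adaptor gene of immune cell adhesion, was higher by log2 2.25 (SE 0.39, adjusted p = 0.0153) beside Fyb at log2 1.89. ENSMUSG00000120849, on the same strand as the matrix metalloproteinase gene Mmp14, was higher by log2 1.88 (SE 0.27, adjusted p = 0.00924). Gm14023 stood at 3.62 ± 1.08 CPM in knockout water and 1.08 ± 0.145 CPM in wild-type water (log2 fold change 1.75, adjusted p = 0.0149). AW112010 was higher as well, at 63.0 ± 3.87 CPM against 34.4 ± 7.03 CPM (log2 fold change 0.87, SE 0.16, adjusted p = 0.019).

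Of the 7 members lower in knockout water, 5 have no overlap. The largest log2 fold change was -3.05, for the opposite-strand member Plet1os, which was also lower in knockout with GM (-1.26). Its call in water was lost in 3 refits without 1 library (adjusted p = 0.0673 to 0.0734). For 2210408F21Rik, with no overlap, it was -0.99, lost in 5 such refits (adjusted p = 0.0701 to 0.151). Snhg15, a small nucleolar RNA host, stood at 4.68, 5.56 and 5.28 CPM in knockout, against 10.4, 11.8 and 19.4 CPM in wild type (log2 fold change -1.42, SE 0.27, adjusted p = 0.0189; 0.0892 to 0.102 without any 1 of the knockout water replicates). It was lower in knockout with GM (log2 fold change -1.21, adjusted p = 0.00209) and with MDP (-1.11, adjusted p = 2.83e-07) too. Gm14461 was lower by 1.72 and ENSMUSG00000120732, near the kinase gene Hipk2, by 1.11 on the log2 scale, and both were also lower in knockout with GM and with MDP. Dleu2, host of microRNAs of the miR-15 and miR-16 family, and Norad were lower by 0.49 and 0.30 (adjusted p = 0.0398 and 0.0499). Gm14461 passed in 12 of 12 settings and was the 1 member that passed without knockout water replicate 2, so AW112010 and the others did not pass there. Gm45472, Gm2245, ENSMUSG00000120849, Gm14023, Snhg15, ENSMUSG00000120732, Dleu2 and Norad each missed the threshold without knockout water replicate 2, with adjusted p-values of 0.0509 (Gm45472) to 0.201 (Norad) in the refits without 1 library that ended their calls. Without wild-type water replicates 1, 2 and 3 the count in water was 28, 19 and 127, and without knockout water replicates 1, 2 and 3 it was 3, 1 and 5.

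With GM, 69 of 227 members differed between the genotypes (30.4%), 52 higher in knockout and 17 lower. In these libraries stromal markers were lower in knockout in 11 of 13 genes tested and dendritic cell markers in 4 of 5, while neutrophil markers were higher in 6 of 7 and cell cycle genes in 12 of 12. The members' share is near the background, 32.4% of all 14377 genes (14.8% higher, 17.6% lower) and 36.2% of well-counted coding genes. Scaled, 24 were higher and 50 lower. AW112010 stood at 69.6, 68.3 and 62.9 CPM in knockout GM, against 194, 221 and 217 CPM in wild-type GM (log2 fold change -1.63, SE 0.09, adjusted p = 0.000152), and Gm14636 was lower by 1.67 on the log2 scale (SE 0.24, adjusted p = 0.00333). Gm14023 was lower by 2.20 (SE 0.69, adjusted p = 0.0477; 0.0725 to 0.144 without wild-type GM replicate 1 or any 1 of the knockout GM replicates) and Il1a by 2.98 (SE 0.29, adjusted p = 0.000942). Higher in knockout were Gm2245 (log2 fold change 2.44, SE 0.24, adjusted p = 0.000955), Gm45472 (2.37, adjusted p = 0.000194) and Gm20531, antisense to the phosphatase gene Ptpn6 (2.04, adjusted p = 0.000295). Without wild-type GM replicate 1 or 3 the count was 39 or 147, and without knockout GM replicates 1, 2 and 3 it was 37, 32 and 32.

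With MDP, 125 of 227 members differed between the genotypes (55.1%), 49 higher in knockout and 76 lower. Of all 14304 genes 46.9% did (23.7% higher, 23.3% lower), and of well-counted coding genes 53.5%, close to the members. Dendritic cell markers were lower in knockout in 5 of 5 genes, stromal markers lower in 7 and higher in 3 of 10, neutrophil markers higher in 4 and lower in 1 of 6, and cell cycle genes higher in 6 and lower in 2 of 12. 65 of the 76 are opposite-strand members, and scaled, 67 were higher and 50 lower. AI504432 stood at 38.0, 39.4 and 43.0 CPM in knockout MDP, against 4.10, 7.45 and 5.95 CPM in wild-type MDP (log2 fold change 2.80, SE 0.14, adjusted p = 5.74e-11). Gm10134, near Gbgt1, stood at 29.2, 25.02 and 25.3 CPM in knockout MDP, against 6.51, 6.61 and 7.05 CPM in wild-type MDP (log2 fold change 2.00, SE 0.12, adjusted p = 2.52e-13). In both members the groups did not overlap. Gm45774 was higher by log2 1.93 (SE 0.10, adjusted p = 8.5e-14), beside Mt2 at log2 2.33. Morrbid was higher by log2 0.93 (SE 0.13, adjusted p = 2.98e-06). 6530413G14Rik was lower by 1.98 on the log2 scale (SE 0.13, adjusted p = 2e-11), beside Acp5, lower by 1.51. Leaving out any 1 of the 6 libraries gave 110 to 125 members.

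Opposite-strand members and the genes they overlap changed in the same direction wherever both passed, in most comparisons. With MDP in knockout, 28 of the 36 passing members with a tested overlapped gene had one that passed, all 28 in the same direction. In wild type with MDP these numbers were 12 of 39, all 12 in the same direction. In knockout against wild type they were 11 of 34 in water (all 11 the same), 20 of 48 with GM (19 the same, 1 opposite) and 66 of 84 with MDP (59 the same, 7 opposite). Of well-counted coding genes, 25.7% passed for MDP in knockout and 9.34% for MDP in wild type. For knockout against wild type, 16.8% passed in water, 36.2% with GM and 53.5% with MDP. Where several coding genes overlapped a member, the one with the highest mean CPM was taken. Across 154 pairs, the log2 fold changes of member and overlapped gene correlated with Pearson r = 0.87 for MDP in knockout and 0.76 for MDP in wild type. These pairs share libraries and may share reads.

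**Figure D4:**
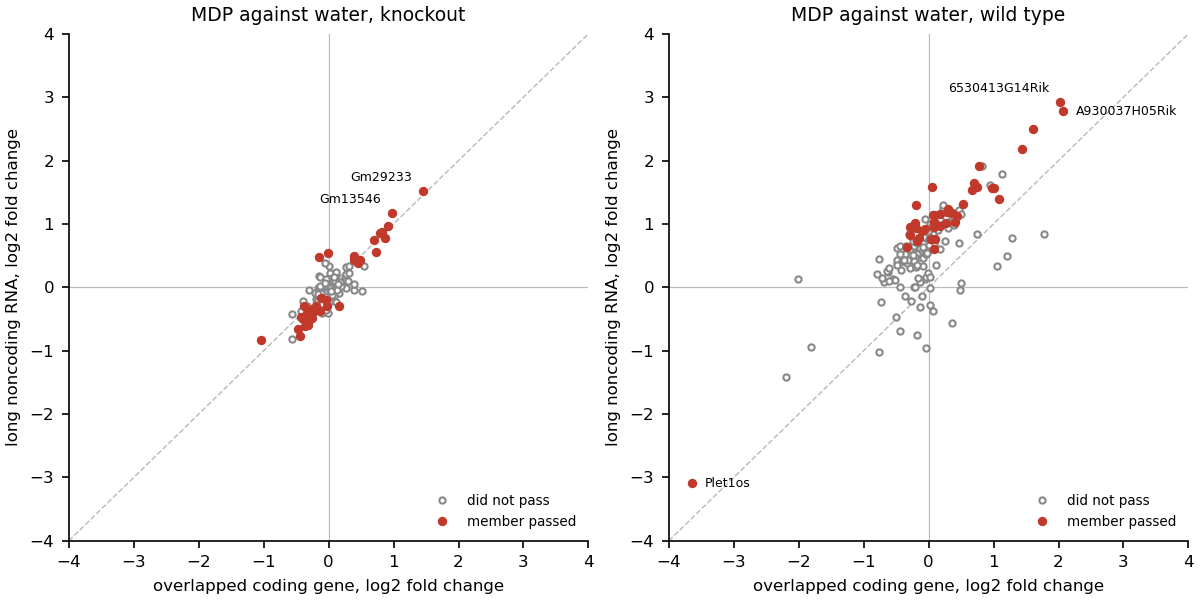
Log2 fold change with MDP against water of opposite-strand lncRNAs (y axis) and of the coding genes they overlap (x axis), in knockout (left) and wild type (right); filled points passed, open points did not, and the dashed line marks equal change. Points follow the line in knockout and lie mostly above it in wild type.

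Members with a published name were followed as groups, beside the all-gene medians above. Of 19 listed small nucleolar RNA hosts 6 are members. With MDP in knockout 4 of the 6 rose, where 10.4% of all genes did (median log2 fold change 0.45, against 0.00 over all genes). Snhg5 stood at 7.03, 8.66 and 8.80 CPM with MDP, against 4.84, 7.40 and 4.91 CPM in water, with overlapping ranges (log2 fold change 0.51, SE 0.17, adjusted p = 0.0262). Snhg6 stood at 17.5, 16.6 and 20.9 CPM, against 12.6, 14.5 and 12.5 CPM (log2 fold change 0.48, SE 0.11, adjusted p = 0.00127), and Snhg15 and Zfas1 rose by 0.48 and 0.43. Gas5 (log2 0.11, 95% interval -0.06 to 0.28) and Snhg1 (0.30, -0.01 to 0.61) did not pass. The median log2 fold change of the 6 was 0.10 with MDP and 0.20 with GM in wild type and -0.02 with GM in knockout, and no host is among the members that passed there.

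Malat1 and Neat1, the listed lncRNAs of nuclear bodies, and Xist and Firre, the X-linked ones, did not pass with MDP in wild type, where Malat1 had a log2 fold change of 0.87 (95% interval 0.13 to 1.61, adjusted p = 0.135) and Xist of -0.38 (adjusted p = 0.0514). In knockout, Neat1 stood at 125, 88.4 and 104 CPM with MDP, against 74.4, 73.3 and 72.4 CPM in water (log2 fold change 0.54, SE 0.13, adjusted p = 0.0354). Malat1 did not pass (log2 0.27, 95% interval 0.04 to 0.50, adjusted p = 0.0999). Xist was at 505 ± 49.3 CPM with GM in knockout and at 600 ± 15.8 CPM in water (SD, n = 3 each; log2 fold change -0.24, SE 0.06, adjusted p = 0.0105). Firre, an X-linked organiser of nuclear structure, did not pass there (log2 -0.12). Against wild type, knockout MDP libraries had more Neat1 (log2 fold change 0.91, SE 0.23, adjusted p = 0.0358) and Xist (0.54, SE 0.06, adjusted p = 4.77e-07).

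The other listed members are given here for the genotypes with MDP, where 46.9% of all genes passed. In knockout MDP against wild-type MDP, the imprinted Peg13 was lower by 0.63 on the log2 scale (SE 0.11, adjusted p = 4.17e-05). Mir22hg, host of miR-22, was higher by log2 0.34 (SE 0.12, adjusted p = 0.0186) and Oip5os1, also called Cyrano, by 0.47 (SE 0.05, adjusted p = 6.04e-08), while Dleu2 and Norad were lower by 0.36 and 0.19. Of the 3 listed innate immune members, Gm15441 was higher in knockout with GM (log2 fold change 1.12, SE 0.26, adjusted p = 0.0192), and AW112010 and Morrbid were lower there, Morrbid by 0.79 (adjusted p = 0.0134).

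**Figure D5:**
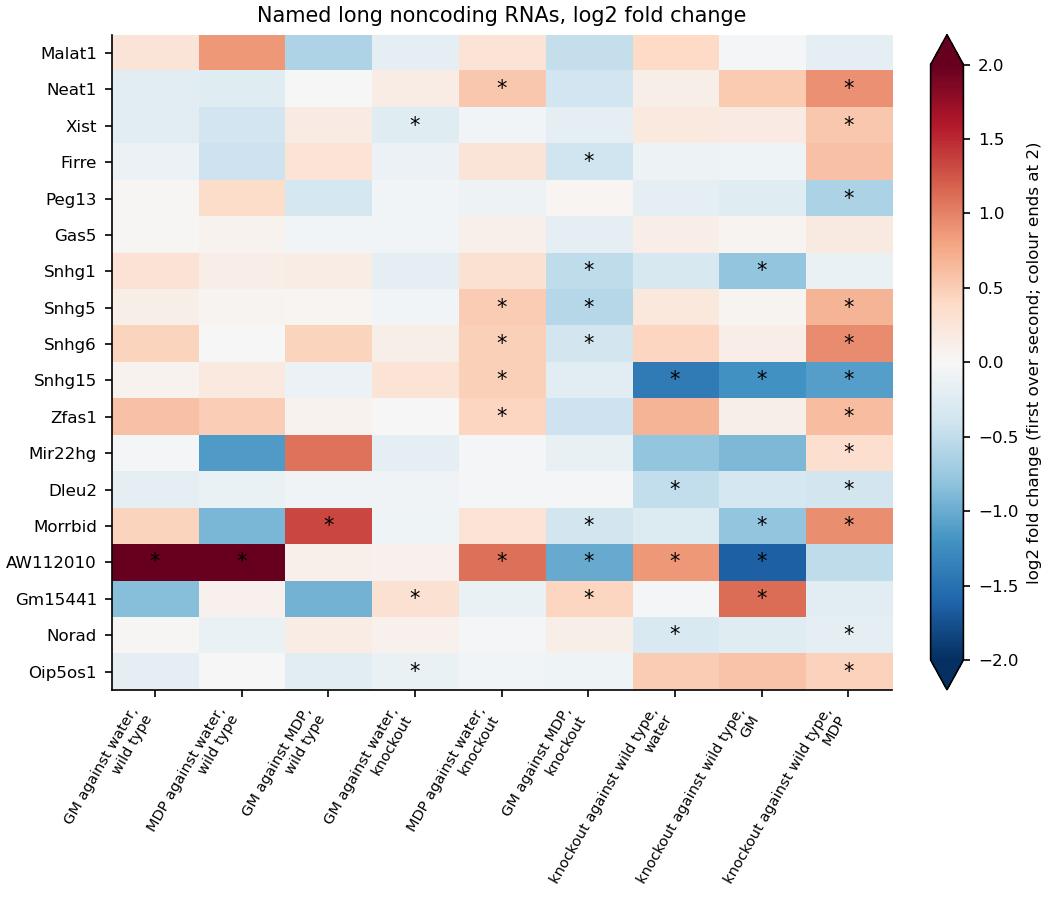
Log2 fold change (colour; red higher and blue lower in the first-named group, ending at 2) of 18 lncRNAs with published names (rows) in 9 comparisons (columns); a star marks an adjusted p under 0.05. AW112010 passed for GM and for MDP in wild type, and 4 small nucleolar RNA hosts passed for MDP in knockout.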

How the data were processed

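RNA was measured by poly(A) RNA sequencing with directional libraries, per the labels' protocols, in 18 mouse libraries. Reads were aligned with HISAT2 2.0.5 and counted with featureCounts 1.5.0-p3, per the submitters' processing notes, and the gene coordinates are on GRCm39. Whether counting used strand is not given in the sources used here. The authors deposited raw counts per gene, and the FPKM values, per length and depth, were also computed by the authors.

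Each comparison of 2 groups was fitted on its 6 libraries (12 for differences between responses) with edgeR 4.0.16 in R 4.3.3, by the quasi-likelihood test with robust fitting, filterByExpr (minimum count 10) and TMM scaling, because groups differed in spread. P-values were adjusted by Benjamini-Hochberg over all genes tested, with a threshold of 0.05. CPM levels use TMM scaling over all libraries. The scripts were tested on simulated data. The members and lists were chosen with earlier results of these data known.

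Genes were named by this rule: in each comparison up to 8 members higher and 8 lower with the largest change among those past the threshold and, between 2 groups, with CPM ranges that did not overlap; the 10 with the highest mean FPKM; 2 on each side of the count threshold; and the listed members with published names. Gm13546, 6530402F18Rik and Gm14023 are named in further comparisons for their GM response or position, chosen after their values were seen. Alternatives were 1 fit of all 18 libraries, DESeq2 1.42.0, RLE scaling, no filter on low counts, a replicate block, leaving out each library, a mean count of 200 or more (113 members) and, added after seeing the data, the scaling of opposite-strand members. The main fits did not pair samples by replicate number. Over 45 pairs with the same number, correlations of deviations ran over -0.214 to 0.568 (median 0.007). Of these, 4 were over 0.1, so pairing of some samples is not excluded.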

Additional observations from a re-analysis of the deposited data

Results flagged for a closer look

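All results listed here are differences between the genotypes in a response, tested as interactions with edgeR (log2, wild-type response minus knockout response). For GM the response differed in 3 lncRNAs: AW112010 by 2.528, Gm13546 by 1.443 and 6530402F18Rik by 1.049.

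For MDP it differed in 48. The differences with the higher log2 response in wild type were 2.365 for A930037H05Rik, 2.17 for Slfn5os, 2.137 for 6530413G14Rik, 2.129 for Gm17233, 1.888 for Gm14493, 1.85 for Gm48342, 1.697 for Gm10143 and 1.683 for 4921516A02Rik. Those in the other direction were -2.637 for AI504432, -1.536 for Gm45774, -1.094 for 2210408F21Rik, -0.762 for Dubr and -0.505 for F630028O10Rik. Gm17233 stood in knockout at 9.36, 8.21 and 6.04 CPM with MDP, against 10.8, 12.3 and 10.9 CPM in water. In wild type it stood at 18.9, 21.1 and 20.8 CPM with MDP, against 5.20, 6.64 and 8.13 CPM in water, so the groups lay apart in opposite directions.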

How the results depend on the processing

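Counts of passing members moved by more than 1.5 times under these settings, and the cause was not tested. The share of all genes that passed under each setting, or without 1 library, is not given beside them or beside such counts above. The moves therefore cannot be read as particular to the members. With GM in wild type (1 as reported) 11 passed in 1 fit of all 18 libraries, 5 with DESeq2, 2 with RLE scaling, 3 with no filter and 2 with opposite-strand members scaled. With MDP in wild type (48) it was 87 in the fit of all libraries, 85 with DESeq2, 12 with the replicate block and 30 among members of 200 or more counts. For GM against MDP in wild type (54) it was 99, 88 with DESeq2 and 27 of 200 or more counts. In knockout, the fit of all libraries called 0 for GM (20; unadjusted 9, DESeq2 16), 4 for MDP (61) and 2 for GM against MDP (56), the last with 34 of 200 or more counts. Knockout against wild type gave in water (47) 77 in the fit of all libraries, 15 with the replicate block and 29 of 200 or more counts, with GM (69) 37 of 200 or more, and with MDP (125) 63 and 71. The difference in GM response (3) gave 5 in the fit of all libraries, 6 with DESeq2, 1 with the block and 5 scaled, and that in MDP response (48) gave 25 scaled and 30 of 200 or more counts. The threshold of 200 leaves 113 members, which lowers these counts by itself. The mean share of counts in members was 0.4971%, 0.4458% without Xist and 0.4118% for members of 200 or more counts.

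Leaving out 1 library at a time gave 0 to 3 for GM and 5 to 125 for MDP in wild type, 5 to 124 for GM against MDP in wild type, 14 to 19 for GM, 43 to 60 for MDP and 37 to 58 for GM against MDP in knockout. Knockout against wild type gave 1 to 127 in water, 32 to 147 with GM and 110 to 125 with MDP, and the differences gave 1 to 15 for GM and 26 to 112 for MDP. Of the 137 named fold changes, 44 lost their call in the fit of all libraries, 4 with DESeq2, 11 with no filter, 14 scaled and 21 with the replicate block, and 232 of 918 refits without 1 library did; 0 turned direction. Whether the replicate numbers pair some of the samples was not settled, as 4 of 45 pairs with the same number had a correlation over 0.1.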
